A study of Homo sapiens with 6 samples.

Results

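The genes examined here encode the subunits of Polycomb repressive complex 2 (PRC2) and the demethylases that act against it. They were chosen by name: the catalytic subunits EZH2 and EZH1, the core subunits EED and SUZ12, the accessory subunits JARID2, MTF2, PHF19 and AEBP2, and the H3K27 demethylases KDM6A (UTX) and KDM6B (JMJD3). All 10 are among the 14930 genes of an RNA-Seq expression matrix from OVCAR8 cells, a line of high grade serous ovarian cancer, and 9 of them had values high enough to be tested. The matrix holds 6 samples in 3 groups of 2. Control cells received the solvent DMSO. DZNep cells received 3-deazaneplanocin A at 5 μM for 72 h (the study's methods give μM, whereas the sample labels write mM), a compound that blocks S-adenosylhomocysteine hydrolase and so inhibits many methyltransferases. The shEZH2 cells came from the line OVCAR8-shEZH2#2, which carries a hairpin against EZH2 on the vector Tet-pLKO-puro, and received doxycycline at 1 μg/mL for 72 h (mg/mL in the labels). Whether the control cells carried the hairpin or received doxycycline is not given, so effects of doxycycline or of the hairpin vector cannot be told apart from silencing of EZH2. Separate cultures are not stated for the replicates, so p-values measure only the spread between these samples, which may be technical.

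PRC2 places methyl groups on lysine 27 of histone H3, a mark of repressed genes in development and in cancer. EZH2 or EZH1 carries the catalytic SET domain and is active only when bound to EED, which binds the methylated mark itself, and SUZ12, the scaffold of the complex. The accessory subunits fall into separate forms of the complex: MTF2, PHF19 and their relative PHF1 mark PRC2.1, and JARID2 and AEBP2 mark PRC2.2. KDM6A and KDM6B remove the methyl groups, and KDM6A works within the COMPASS complexes of KMT2C and KMT2D. EZH2 is best known as a gene of dividing cells that is driven by E2F factors, whereas EZH1 is known for its expression in resting cells.

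2 stretches of EZH2 sequence bear on the comparisons: the site that the hairpin was designed against, and the start of the gene. The target of hairpin number 2 is 21 bases long and has 1 exact match in GRCh38, chr7:148832703-148832723 on the minus strand. It lies in the coding sequence, in exon 4 of 20 of the canonical transcript ENST00000320356.7. The guide strand is its reverse complement. Capitals mark the seed of the guide (bases 2 to 8) and the bases of the target that pair with it.
EZH2 hairpin target: ccaacacaagtcaTCCCATTa
EZH2 hairpin guide strand: tAATGGGAtgacttgtgttgg
The site is present in 5 of 6 protein-coding EZH2 transcripts of GENCODE and in 12 of all 20. The closest stretch in the canonical transcripts of the other 9 genes differed from the target at 7 to 9 of its positions, EZH1 included at 8. None of those 9 transcripts holds a match to the seed, whereas 13.7% of canonical transcripts (2682 of 19545) hold one in the 3′ UTR.

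The EZH2 gene spans chr7:148807257-148884321 on the minus strand of GRCh38. A RefSeq promoter window of EZH2, from 250 bases before to 50 after the RefSeq start, holds a word of the E2F consensus. The 30 bases around this RefSeq start, chr7:148884282-148884311 on the minus strand, are given with that word in capitals. The word begins 1 base past the RefSeq start, which lies inside the GENCODE span given above rather than at its end.
EZH2 start: gatggcgattgggctgccgcgTTTGGCGCt
The words searched on both strands were TTTGGCGC and TTTCGCGC. EZH2 was the only 1 of the 10 genes with a match in any of their 14 promoter windows. The words were found in windows of 10 of 24 cell cycle genes (41.7%) and of 382 of all 27305 genes (1.4%). They were in 1.15% of all 35116 windows. The 24 are the listed cell cycle genes that had a window. A match describes these letters only, and its use in OVCAR8 was not measured.

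The matrix gives 1 whole number for each gene and sample. The values of each sample add up to between 999956 and 1000068, so they were scaled to a common total and rounded and are not read counts, and the depth behind them is unknown. For a gene with a value near 10, rounding alone is a sizeable part of the number. The values ran at 43.0 in median for tested genes in the bin of shortest canonical transcripts (median 1413 bases) and 29.2 in the bin of longest (7152 bases), so they do not grow with transcript length, and levels are compared between genes on this scale. For tests, the values were divided by TMM factors (0.920 to 1.116) and compared by limma on log2(value + 1). The 9671 genes tested reached 10 in 2 or more samples. Folds on this scale understate the change of low genes. A gene was called at a Benjamini-Hochberg adjusted p under 0.05 over all tested genes. Keratins of epithelial cells were high in every sample (KRT8 from 816 to 3540), PAX8, a marker of ovarian serous carcinoma, ran from 10 to 19, and WT1 only from 1 to 2. The summed value of the 6 epithelial markers in the matrix was 3036 and 2427 in control samples, 8540 and 7364 with DZNep and 3455 and 3456 with shEZH2, most of it from KRT8 and KRT18, and its part in the results for DZNep was not tested. PAX8 fell with DZNep, from 17 and 19 to 10 and 13 (log2 fold change -0.68, limma adjusted p = 0.0277, kept in 9 of 17 alternatives and lost, at 0.0564 to 0.0801, without any single sample other than DZNep replicate 2), and EPCAM had 7 and 12 in control and 5 and 7 in DZNep samples. Of 7 markers of blood, endothelial and adipose cells, CD14 ran from 1 to 2 and VWF from 0 to 2 over the 6 samples, with no value near the test's minimum. As the RNA is from whole cultures, fewer cells expressing a gene and less RNA per cell cannot be told apart.

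In control cells the mean values ranked PHF19 first at 84.0, followed by JARID2 at 71.0, MTF2 at 46.5, EED at 43.5, EZH2 at 39.0, EZH1 at 24.5, SUZ12 at 23.0, AEBP2 at 20, KDM6A at 8.5 and KDM6B at 2. Neighbours in this order overlapped in their single values, apart from JARID2 above MTF2, EZH2 above EZH1, AEBP2 above KDM6A and KDM6A above KDM6B. PHF19 and JARID2 met at 75. In DZNep cells EZH2 kept the fifth place, and KDM6A moved above AEBP2, with overlapping values. In shEZH2 cells EZH2 took the seventh place at 18, below EZH1 at 23.5 and SUZ12 at 20, and within the values of AEBP2. SUZ12 has a near-identical pseudogene, SUZ12P1, whose values were 4 or 5 in every sample, so a share of the reads of either may have been assigned to the other.

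**Figure D1:**
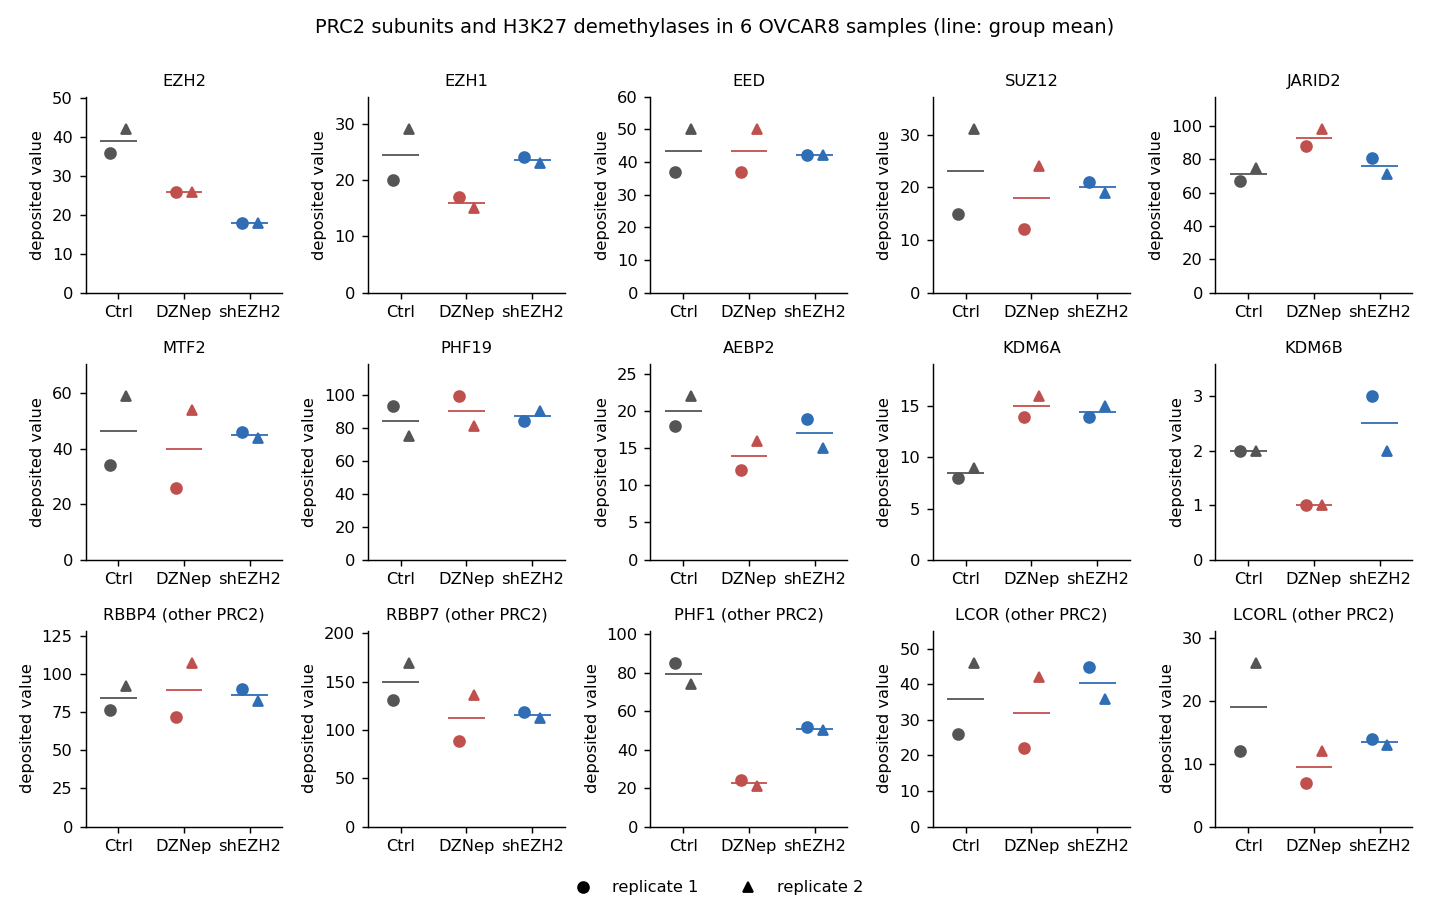
Deposited values (scaled, without unit) of the 10 genes and of further PRC2 subunits in each of the 6 samples; circles are replicate 1, triangles replicate 2, and lines the group means. EZH2 lies at 36 and 42 in control samples, at 26 in each DZNep sample and at 18 in each shEZH2 sample, KDM6A at 8 and 9 in control and 14 to 16 in treated samples, and SUZ12 and MTF2 lie far apart within the control and DZNep groups.

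With DZNep, 2 of the 9 tested genes changed: EZH2 was lower and KDM6A was higher. Of all 9671 tested genes, 42.7% changed, 22.4% upward and 20.4% downward, so the count of 2 of 9 lay below the share called among all genes. EZH1 and AEBP2 lay just outside the threshold, at 4 genes in all with an unadjusted p under 0.05. The median log2 fold change of the 9 genes was -0.32, against 0.02 for all tested genes.

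EZH2 had values of 36 and 42 in control samples and 26 and 26 in DZNep samples. The groups did not overlap. The log2 fold change was -0.63 (SE 0.18, 95% interval -1.05 to -0.21, n = 2 per group), a fold of 0.645 with a limma adjusted p of 0.0255. Of all tested genes, 21.3% had a lower log2 fold change. The call was lost without control replicate 2 (adjusted p = 0.0832), DZNep replicate 2 (0.0735), shEZH2 replicate 1 (0.0914) or shEZH2 replicate 2 (0.0915), the last pair through the shared estimate of the spread. The direction was kept in all 18 alternatives.

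EZH1, the paralogue, had values of 20 and 29 in control and 17 and 15 in DZNep samples, again without overlap. Its log2 fold change of -0.63 (95% interval -1.15 to -0.12) equalled that of EZH2 to the second decimal but missed the threshold, with a limma adjusted p of 0.0508. It passed in 6 of 18 alternatives, among them those without control replicate 1 (adjusted p = 0.0286) and without DZNep replicate 1 (0.0314). The ratio of EZH1 to EZH2 within a sample was 0.556 and 0.690 in control and 0.654 and 0.577 in DZNep samples, and these ranges overlapped.

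EED, the reader of the mark, had the same values in control and DZNep samples, 37 and 50 in both, and a log2 fold change of -0.07 (95% interval -0.49 to 0.35, adjusted p = 0.775). SUZ12 had 15 and 31 in control and 12 and 24 in DZNep samples, with a log2 fold change of -0.40 (95% interval -1.16 to 0.36, adjusted p = 0.359). Replicate 2 was 2.07 times replicate 1 in control and 2.0 times in DZNep samples for SUZ12, a shift in the same direction in both groups. In the unpaired fit this shift counts as spread. Between samples of the same number, the log2 difference of SUZ12 was -0.32 and -0.47. Neither core subunit passed the unpaired test. With the replicate block and only the groups compared, the limma adjusted p was 0.0117 for SUZ12 and 0.546 for EED.

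The listed accessory subunits MTF2, PHF19, JARID2 and AEBP2 did not pass the unpaired test either. PHF1, a further subunit of PRC2.1, did pass it and is given below. With the replicate block and only the groups compared, the limma adjusted p was 0.00737 for MTF2, 0.0018 for JARID2, 0.00114 for AEBP2 and 0.773 for PHF19. The values that follow are from the unpaired fit. MTF2 had values of 34 and 59 in control and 26 and 54 in DZNep samples (log2 fold change -0.32, 95% interval -1.01 to 0.37, adjusted p = 0.415). Between samples of the same number, its log2 difference was -0.40 and -0.24. Replicate 2 of MTF2 was at 1.74 and 2.08 times replicate 1. PHF19 showed the opposite replicate pattern, 93 and 75 in control and 99 and 81 in DZNep samples (log2 fold change 0.03, adjusted p = 0.933). JARID2, which recruits and stimulates the complex, had 67 and 75 in control and 88 and 98 in DZNep samples, a log2 fold change of 0.31 (95% interval -0.05 to 0.68, adjusted p = 0.145) without overlap. AEBP2, its partner in PRC2.2, had 18 and 22 in control and 12 and 16 in DZNep samples, a log2 fold change of -0.56 (95% interval -1.01 to -0.11) with an adjusted p of 0.0506 that passed the threshold in 5 of 17 alternatives. The ratio of JARID2 to AEBP2 was 3.72 and 3.41 in control samples, 7.33 and 6.13 with DZNep and 4.26 and 4.73 with shEZH2, so both DZNep samples lay above all others.

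**Figure D2:**
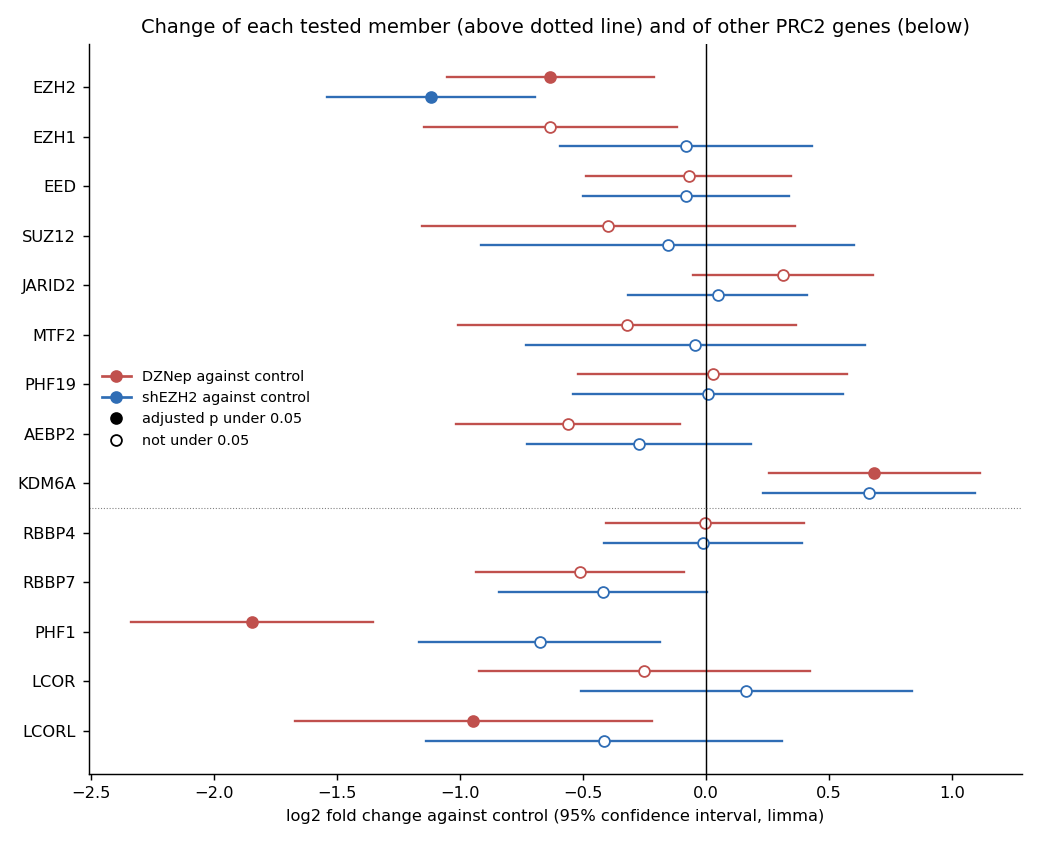
Log2 fold changes with 95% intervals of the 9 tested genes and further PRC2 subunits for DZNep and shEZH2 against control, from 1 limma fit of all 6 samples; filled points have an adjusted p under 0.05. EZH2 is filled in both comparisons (-0.63 and -1.12), KDM6A with DZNep only (0.69, against 0.66 with shEZH2), and PHF1 has the lowest value with DZNep (-1.85).

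KDM6A had values of 8 and 9 in control samples and 14 and 16 in DZNep samples. The log2 fold change was 0.69 (95% interval 0.26 to 1.12), with a limma adjusted p of 0.0200. Its control values were under 10, so it entered the test only through its treated samples. With a filter of 5 in place of 10 the adjusted p was 0.0210, and with no filter 0.0228. The call was lost without control replicate 2 (0.0589), DZNep replicate 1 (0.0510) or either shEZH2 sample (0.0783 and 0.0784). KDM6B was near the bottom of the scale, at 2 and 2 in control samples, 1 and 1 with DZNep and 3 and 2 with shEZH2, and was not tested. Rounding alone allows its DZNep to control log2 ratio to lie anywhere between -2.32 and 0.

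Silencing of EZH2 addresses the same genes by another route. With shEZH2, 1 of the 9 tested genes changed, EZH2 itself, while 8.44% of all tested genes were called (3.91% higher and 4.53% lower). KDM6A also had an unadjusted p under 0.05. The median log2 fold change of the 9 genes was -0.08, against -0.01 for all tested genes.

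EZH2, the targeted gene, had values of 18 and 18 in shEZH2 samples against 36 and 42 in control samples, without overlap. The log2 fold change was -1.12 (95% interval -1.54 to -0.70), a fold of 0.461 (95% interval 0.344 to 0.617) with a limma adjusted p of 0.0160. Of all tested genes, 2.12% had a lower log2 fold change. With 1 shEZH2 sample left out, the log2 fold change stayed between -1.14 and -1.09, but the adjusted p was 0.206 without replicate 1 and 0.170 without replicate 2. The SE was 0.18 with both samples and 0.33 with either left out, and 35 genes in all were called in each of these fits. The 2 shEZH2 samples lay closer together than the samples of the other groups: the SD of the log2 difference between replicates over all tested genes was 0.14, against 0.43 in control and 0.45 in DZNep samples.

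EZH1 had values of 24 and 23 in shEZH2 samples, inside the control values of 20 and 29 (log2 fold change -0.08, 95% interval -0.59 to 0.43, adjusted p = 0.835). The interval leaves room for a moderate difference either way. Within each sample, the EZH1 to EZH2 ratio was 1.33 and 1.28 in shEZH2 samples and under 0.7 in all 4 others, so EZH1 was listed above EZH2 only after silencing. EED had 42 and 42 (log2 fold change -0.08, 95% interval -0.50 to 0.34, adjusted p = 0.799), and its ratio to EZH2 was 2.33 in both shEZH2 samples against 1.03 and 1.19 in control and 1.42 and 1.92 in DZNep samples. Both ratios have the silenced gene as denominator and rise when EZH2 alone falls.

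SUZ12 had 21 and 19 in shEZH2 samples, both between the control values of 15 and 31 (log2 fold change -0.15, 95% interval -0.91 to 0.60, adjusted p = 0.788). MTF2 likewise had 46 and 44, between 34 and 59 (-0.04, 95% interval -0.73 to 0.65, adjusted p = 0.939). For both genes the sign of the difference depended on the control sample used, since it was 0.31 for SUZ12 and 0.27 for MTF2 between samples numbered 1 and -0.62 and -0.36 between samples numbered 2. PHF19 had 84 and 90 (log2 fold change 0.01, adjusted p = 0.984) and JARID2 81 and 71 (0.05, adjusted p = 0.865). AEBP2 had 19 and 15 (-0.27, 95% interval -0.73 to 0.18, adjusted p = 0.402). None of the accessory subunits passed the test, and the intervals of MTF2 and SUZ12 are too wide to show that they kept their level.

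KDM6A had 14 and 15 in shEZH2 samples, close to its 14 and 16 in DZNep samples and above both control values of 8 and 9. The log2 fold change was 0.66 (95% interval 0.23 to 1.09), with a limma adjusted p of 0.0625 that missed the threshold. Over 17 alternatives the adjusted p ran from 0.0180 to 0.509 and passed in 6, among them the values as deposited (0.0473) and the fits without DZNep replicate 1 (0.0435) or 2 (0.0443). The ratio of KDM6A to EZH2 was 0.222 and 0.214 in control samples, 0.538 and 0.615 with DZNep and 0.778 and 0.833 with shEZH2, with no overlap between groups. Its denominator is the target of the hairpin. As KDM6A had similar values with both treatments, the step from DZNep to shEZH2 in this ratio reflects the lower EZH2. Both treatments are set against the same 2 control samples, so their values for KDM6A are not independent.

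**Figure D3:**
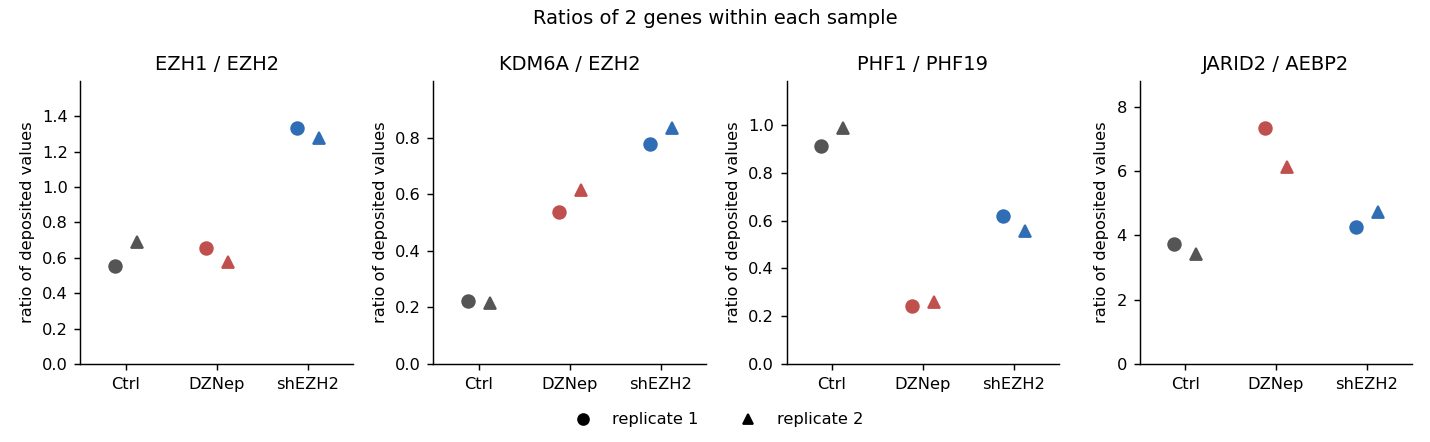
Ratios of deposited values of gene pairs within each of the 6 samples; circles are replicate 1 and triangles replicate 2. EZH1 to EZH2 exceeds 1 only in the shEZH2 samples (1.33 and 1.28), KDM6A to EZH2 is lowest in control (0.222 and 0.214) and highest in shEZH2 samples (0.778 and 0.833), and PHF1 to PHF19 is lowest in the DZNep samples (0.242 and 0.259). Where EZH2 is the denominator, it is the gene silenced in the shEZH2 samples.

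Set directly against each other, shEZH2 and DZNep samples did not differ in any of the 9 genes at an adjusted p under 0.05 by limma, whereas 9.30% of all tested genes did. At an unadjusted p under 0.05 there were 2, EZH2 and EZH1. EZH2 was lower with shEZH2, 18 and 18 against 26 and 26, with a log2 difference of -0.48 (95% interval -0.91 to -0.06, adjusted p = 0.133). EZH1 was on the other side, at 24 and 23 against 17 and 15, with a log2 difference of 0.55 (95% interval 0.04 to 1.06, adjusted p = 0.156). KDM6A differed by -0.02 (95% interval -0.45 to 0.41, adjusted p = 0.961).

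Counted by overlap of the scaled values alone, 5 of the 9 genes were separate between DZNep and control samples, 2 higher and 3 lower, where 65.6% of all tested genes were separate. Between shEZH2 and control samples 3 were separate, 1 higher and 2 lower, against 65.1% of all genes, and between shEZH2 and DZNep samples 4 were, against 60.8%. With 2 samples per group, such separation is common.

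**Figure D4:**
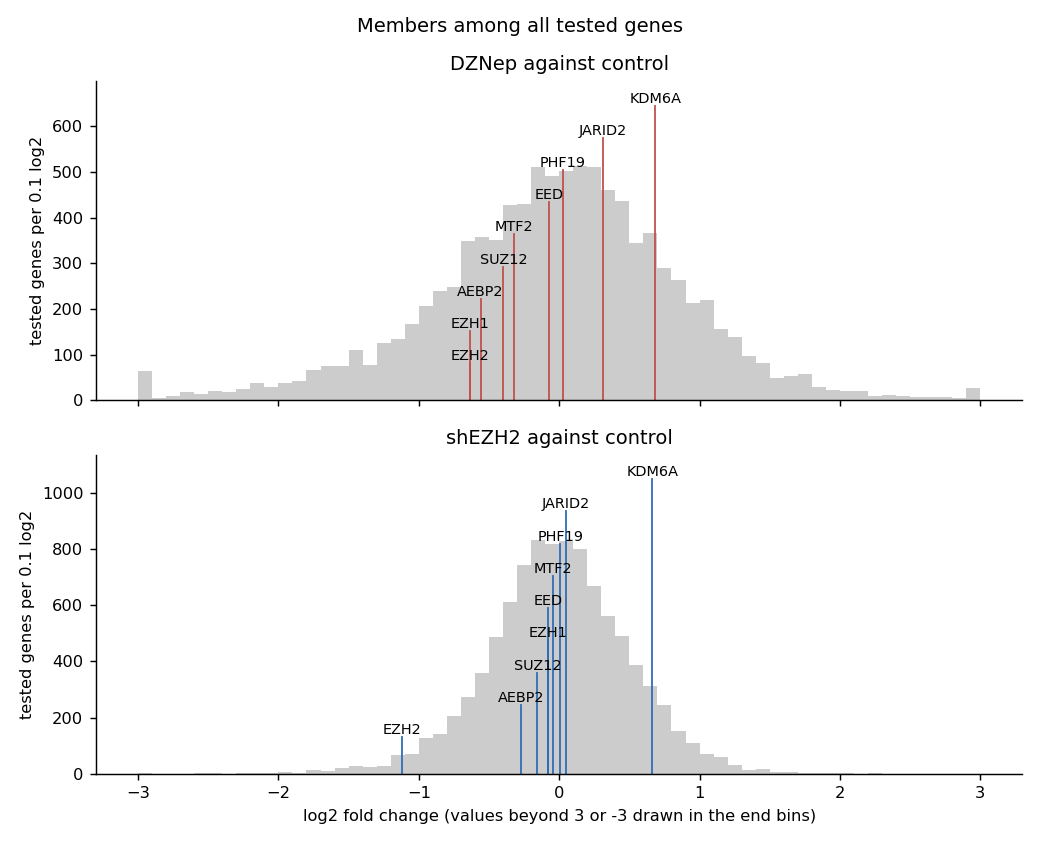
Histograms of the log2 fold changes of all 9671 tested genes (number of genes per bin of 0.1) for DZNep and shEZH2 against control, with more extreme values drawn in the end bins and vertical lines at the 9 genes; line heights only separate the names. EZH2 has 2.12% of genes below it with shEZH2 and 21.3% with DZNep, and in the shEZH2 panel EZH2 and KDM6A are the lines farthest from 0.

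The rest of the complex was followed through 7 further subunits and partners, of which 5 were in the matrix and EPOP and EZHIP were not analysed here. PHF1, the third Polycomb-like protein beside MTF2 and PHF19, had values of 85 and 74 in control samples, 24 and 21 with DZNep and 52 and 50 with shEZH2, with no overlap between any 2 groups. With DZNep it fell by 1.85 on the log2 scale (SE 0.21, 95% interval -2.34 to -1.35, limma adjusted p = 0.000547), a call kept in all 18 alternatives. With shEZH2 the log2 fold change was -0.68 (95% interval -1.17 to -0.18, adjusted p = 0.0858), called in 6 of 18 alternatives, among them those without DZNep replicate 1 (0.0445) or 2 (0.0432). The direct log2 difference, 1.17 higher with shEZH2 than with DZNep, had an adjusted p of 0.0188, which was 0.163 without shEZH2 replicate 1 and 0.164 without replicate 2. PHF1 was thus near PHF19 in control cells, with ratios of 0.914 and 0.987, and far below it in DZNep cells, at 0.242 and 0.259.

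LCORL, a paralogue of LCOR that associates with PRC2.1, had 12 and 26 in control and 7 and 12 in DZNep samples and also passed the test (log2 fold change -0.95, 95% interval -1.67 to -0.22, limma adjusted p = 0.0420). Its control replicates differed by 2.17 times, and the call was kept in 9 of 17 alternatives; it was lost without control replicate 2 (adjusted p = 0.207), DZNep replicate 1 (0.164), shEZH2 replicate 1 (0.0565) or shEZH2 replicate 2 (0.0564). LCOR had 26 and 46 in control and 22 and 42 in DZNep samples (-0.25, adjusted p = 0.519). The histone-binding subunits RBBP4 and RBBP7, which PRC2 shares with other chromatin complexes, had log2 fold changes of 0.00 (adjusted p = 0.994) and -0.51 (adjusted p = 0.0533, and 0.0201 without DZNep replicate 2) with DZNep. None of the 5 was called with shEZH2.

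The profile most like that of EZH2 was sought over the 6 samples by the distance between centred log2 values, where 0 is the same profile. The nearest 5 genes were TMEM97 (0.366), SCD5 (0.382), TUBB6 (0.401), GMPR2 (0.406) and TMED8 (0.409), against a median of 1.36 over all other tested genes. TUBB6, a tubulin, had 1035 and 1044 in control samples, 621 and 659 with DZNep and 581 and 578 with shEZH2. None of the partners of EZH2 came near: AEBP2 was at 1.01, EED at 1.09 and SUZ12 at 1.33. MTF2, at 1.38, and KDM6A, at 1.85, were farther than the median gene.

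Related Polycomb and COMPASS genes are given by lists that were written by hand. For comparison, 22.4% of all tested genes rose and 20.4% fell with DZNep. Of 26 tested PRC1 genes, which encode the complex that ubiquitinates histone H2A and reads the PRC2 mark, 5 rose and 3 fell with DZNep. Their median log2 fold changes were 0.06 with DZNep and -0.01 with shEZH2. The chromodomain proteins CBX2, CBX6 and CBX8 were among those that rose with DZNep, CBX6 from 19 and 16 to 63 and 49 (log2 fold change 1.55, limma adjusted p = 0.00207). CBX8, at 5 and 5 in control samples, PCGF1 and FBRSL1 entered the test only through treated samples. PHC2, a polyhomeotic subunit, fell from 55 and 46 to 21 and 14 (-1.57, adjusted p = 0.00349). DCAF7, a scaffold protein of some PRC1 forms, fell from 118 and 116 to 42 and 43 (-1.51, adjusted p = 0.000503). The call of CBX2 with DZNep was lost without control replicate 2 (0.158), DZNep replicate 1 (0.179) or either shEZH2 sample (0.0731 and 0.0733).

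Among all tested genes, 22.4% rose and 20.4% fell with DZNep, and 8.44% were called with shEZH2. Of 8 tested genes of PR-DUB, the complex that removes ubiquitin from H2A, 2 rose with DZNep and none was called with shEZH2. BAP1, its deubiquitinase, had 97 and 75 in control and 187 and 172 in DZNep samples (log2 fold change 0.99, limma adjusted p = 0.00877). ASXL1, its cofactor, had 77 and 75 in control samples, 121 and 129 with DZNep and 123 and 108 with shEZH2 (0.64 with adjusted p = 0.0169, and 0.55 with adjusted p = 0.0771). Of 11 genes of the KDM6A-containing COMPASS complexes and of H3K27 acetylation, 1 rose and 2 fell with DZNep and none was called with shEZH2. CREBBP, an acetyltransferase for H3K27, rose from 17 and 12 to 43 and 32 (1.25, adjusted p = 0.01), and the shared COMPASS subunits ASH2L (-0.54, adjusted p = 0.0328) and DPY30 (-0.51, adjusted p = 0.0492) fell. The calls of ASXL1, ASH2L and DPY30 were each lost without control replicate 2, DZNep replicate 1, shEZH2 replicate 1 or shEZH2 replicate 2, those of ASH2L and DPY30 also without control replicate 1, at adjusted p-values between 0.0622 and 0.189.

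Genes known from other systems to be repressed by PRC2 form a list of 28, of which 21 were in the matrix and 12 were tested. With DZNep 6 rose and 1 fell, beside 22.4% and 20.4% of all tested genes. With shEZH2 4 rose and 1 fell, beside 3.91% and 4.53% of all tested genes. FBXO32, KLF2, LHX2 and VASH1 entered the test only through treated samples, so these counts are no measure of the list as a whole. DKK1, a secreted WNT inhibitor, had 55 and 63 in control samples, 254 and 329 with DZNep and 128 and 120 with shEZH2, with log2 fold changes of 2.21 (limma adjusted p = 7.24e-05) and 1.01 (adjusted p = 0.0135). TXNIP, a regulator of glucose uptake and redox state, had 26 and 29 in control samples, 45 and 51 with DZNep and 60 and 48 with shEZH2 (0.71, adjusted p = 0.0138, and 0.89, adjusted p = 0.0251). FBXO32, a ubiquitin ligase subunit, had 3 and 4 in control samples, 23 and 20 with DZNep and 9 and 9 with shEZH2. KLF2, a transcription factor, had 4 and 4, 19 and 17, and 10 and 9 in the same order. With shEZH2 the calls of DKK1, FBXO32, KLF2 and TXNIP were lost when either shEZH2 sample was left out (adjusted p from 0.165 to 0.363), those of KLF2 (0.0815) and TXNIP (0.0614) also without control replicate 2. That of TXNIP with DZNep was lost without shEZH2 replicate 1 (0.0522) or 2 (0.0515).

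The genes of this list that fell were CDKN2B with DZNep and IGFBP3 with shEZH2. CDKN2B, an inhibitor of cyclin D kinases, had 14 and 20 in control samples, 6 and 11 with DZNep and 14 and 13 with shEZH2 (log2 fold change with DZNep -1.02, limma adjusted p = 0.0119). IGFBP3, a binding protein for insulin-like growth factors, had 100 and 101 in control and 32 and 27 in shEZH2 samples (-1.79, adjusted p = 0.00318). In DZNep samples it had 79 and 91 (-0.31, adjusted p = 0.163), and the direct difference between the treatments was -1.47 (adjusted p = 0.00407, and 0.0623 without shEZH2 replicate 2). IGFBP3 was the only 1 of the 9 called genes of all lists here that kept its call with shEZH2 under every alternative.

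EZH2 is known as a gene of dividing cells, so the cell cycle genes are given beside it. Over all tested genes, 22.4% rose and 20.4% fell with DZNep, and 3.91% rose and 4.53% fell with shEZH2. Of 27 tested cell cycle genes, 7 rose and 9 fell with DZNep, and 1 rose and 2 fell with shEZH2. Their median log2 fold change was -0.16 with either treatment. The largest rises among genes called with DZNep were those of the replication licensing genes MCM2 (log2 fold change 1.31), CDT1 (1.04) and MCM5 (0.94). The largest falls were those of the mitotic genes BUB1 (-1.44), CDK1 (-1.29) and CCNB2 (-1.18). All had limma adjusted p-values of 0.0188 or less. Not every gene of either kind was called with DZNep: MCM4, MCM6, MCM7, CDC20 and PLK1 were not. With shEZH2, CDT1 rose (0.93, adjusted p = 0.0453), and CCNE2 (-1.15, adjusted p = 0.0444) and RRM2 (-0.83, adjusted p = 0.0239) fell. None of these 3 was called without control replicate 2 (adjusted p from 0.0811 to 0.141), shEZH2 replicate 1 or shEZH2 replicate 2 (0.234 to 0.309), and MCM5 was not called with DZNep without control replicate 2 (0.079) or DZNep replicate 1 (0.0861). The summed value of the 28 listed genes was 3961 and 4506 in control samples, 4033 and 4527 with DZNep and 3904 and 3824 with shEZH2. Their part in the level of EZH2 was not tested.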

How the data were processed

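The 6 RNA-Seq samples of OVCAR8 cells, 2 each for control, DZNep and shEZH2, were grouped by their labels. Per the study's methods, ribosomal RNA was removed, stranded libraries were sequenced, and the authors used fastp for trimming, STAR for alignment to GRCh38 and RSEM for gene quantification. The deposited values are a score per gene: they are named counts, but the authors had scaled each sample to a common total and rounded it to whole numbers. Depth is therefore unknown, and rounding and 2 replicates per group limit the precision.

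Because these are not counts, the count test of the study's methods could not be used, and limma (3.58.1, R 4.3.3) took its place: lmFit of group means over all 6 samples and eBayes with an intensity trend, on log2(value/TMM factor + 1). TMM factors were computed without weights, trimming 30% of log ratios and 5% of means. Genes that did not reach 10 in 2 samples were set aside (5259 genes), and 9671 were tested. P-values are two-sided, adjusted by Benjamini-Hochberg over all tested genes. The test was tried on simulated data.

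The members and gene lists were chosen with earlier results of these data known. Every member and every listed further PRC2 gene in the matrix was named. From each other list, up to 3 called genes were named per comparison against control and direction, those with the largest fold change, with the 5 genes nearest to EZH2 in profile. TXNIP falls outside this rule and was chosen after its values were seen, and LHX2, VASH1, PCGF1, FBRSL1 are named for the filter and EPCAM as a marker. MCM4, MCM6, MCM7, CDC20 and PLK1 are named as cell cycle genes that were not called with DZNep. Some results of the lists are not reported here. Deviations from group means were correlated between samples of the same number to check for pairing. Alternatives were other scalings, filters and pseudocounts, no trend, only the groups compared, a replicate block, averaged shEZH2 samples, each replicate left out, and the fold threshold of the study's methods. Positions and transcripts come from GENCODE v44 and promoter windows from RefSeq, both on GRCh38; all 10 members matched. The hairpin sequence comes from the study's list of oligonucleotides.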

Additional observations from a re-analysis of the deposited data

How the results depend on the processing

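EZH2 was lower in both comparisons against control under all 18 alternatives, but its calls depended on the spread. With DZNep the call was lost when only the groups compared were fitted (log2 fold change -0.63, adjusted p = 0.0880) or the shEZH2 samples were averaged and counted as 1 (-0.63, adjusted p = 0.0915), and over single replicates left out the value ran from -0.75 to -0.51. With shEZH2 it was lost with averaged samples (-1.12, adjusted p = 0.194), and over single replicates left out it ran from -1.15 to -1.09. With a lone sample in a group, that sample is assumed to vary like the other groups. The number of the 9 tested genes called with DZNep was 4 with median-ratio scaling, 1 with a filter on a mean of 20 (which also leaves out AEBP2 and KDM6A), 4 without the trend, 0 when only the groups compared were fitted, 0 with averaged shEZH2 samples, 0 by the fold rule of the study's methods (an absolute log2 fold change over 1 at an unadjusted p under 0.05), and 0 to 3 over single replicates left out. With shEZH2 it was 2 with the values as deposited, 2 when only the groups compared were fitted, 0 with averaged samples and 0 to 2 over single replicates left out.

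Over all genes, the count called with DZNep was 2161 by the fold rule. With shEZH2 it was 1230 with the values as deposited, 430 with a filter on a mean of 20, 1536 when only the groups compared were fitted, 39 with averaged samples, 513 by the fold rule and 35 to 1553 over single replicates left out. Between shEZH2 and DZNep it was 503 with a filter on a mean of 20, 1441 when only the groups compared were fitted, 74 with averaged samples, 534 by the fold rule and 79 to 1447 over single replicates left out.

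Deviations from the group means correlated at 0.79 between control and DZNep samples of the same number, so these groups shared a pattern by replicate number. For the pairs with shEZH2 the correlations were -0.02 and -0.04. The main fit had no block, since the rule used required every pair to exceed 0.1. The main results with DZNep therefore leave this shared pattern in the spread. With the number as a replicate block, 4 of the 9 genes were called with DZNep, 2 with shEZH2 and 1, EZH1, between the treatments; all genes called were 2765 with shEZH2 and 2566 between the treatments. With the block and only the groups compared, 7 of the 9 and 7013 of all genes were called with DZNep, 2 and 1914 with shEZH2, and 1427 of all genes between the treatments. The 7 called with DZNep were all of the tested genes but EED and PHF19. SUZ12 had a limma adjusted p of 0.0117 and MTF2 of 0.00737 in that fit.

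Directions turned only for genes that were not called. With other scalings, the log2 fold change of PHF19 was -0.0073 with DZNep and -0.014 with shEZH2 and that of EED between the treatments 0.0019 (median-ratio), that of MTF2 with shEZH2 was 0.0051 and that of RBBP4 0.069 with DZNep and 0.038 with shEZH2 (as deposited), and RBBP4 differed by 0.0052 between the treatments (median-ratio). The median of all genes shifted by less than 0.1 with either scaling. Over single replicates left out, the ranges with DZNep were -0.20 to 0.064 for EED, -0.82 to 0.027 for SUZ12, -0.71 to 0.069 for MTF2, -0.24 to 0.30 for PHF19, -0.16 to 0.15 for RBBP4 and -0.58 to 0.078 for LCOR. With shEZH2 they were -0.26 to 0.099 for EZH1, -0.22 to 0.053 for EED, -0.58 to 0.27 for SUZ12, -0.018 to 0.11 for JARID2, -0.35 to 0.27 for MTF2, -0.22 to 0.24 for PHF19, -0.067 to 0.047 for RBBP4, -0.16 to 0.49 for LCOR and -0.87 to 0.037 for LCORL. Between the treatments they were -0.099 to 0.077 for EED, -0.11 to 0.59 for SUZ12, -0.11 to 0.67 for MTF2, -0.29 to 0.25 for PHF19, -0.094 to 0.051 for KDM6A, -0.16 to 0.15 for RBBP4 and -0.091 to 0.28 for RBBP7. The causes of these changes were not tested.

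Of the list genes called, epithelial markers included, 41 with DZNep, 9 with shEZH2 and 14 between the treatments, none turned in direction, and 23, 1 and 0 kept their call under every alternative that tested them.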
